A study of Drosophila melanogaster with 17 samples.

Results

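The genes of synaptic vesicle release and of the vesicular proton pump were followed in fly brains that express human tyrosyl-tRNA synthetase (TyrRS). Members were taken by gene symbol: every gene whose symbol begins with Vha, Syt or Syx, and 16 named release genes, as long as at least 1 library held a read. This gave 63 of the 16163 genes with reads, of which 31 belong to the pump and 32 to release, and 15 of the 16 names were found as spelled. The pump genes Vha16-2 and VhaM9.7-d had no read in any library. Endophilin stands in the table as EndoA, with another capital than in the list of names, and is given below beside the members without being counted among them.

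The libraries were made from poly(A) RNA of whole brains of flies aged 10 days, and 17 libraries of 5 genotypes were analysed. The paper names a TruSeq kit and does not state whether it kept the strand. In 4 genotypes the pan-neuronal driver nSyb-Gal4 switched on a human TyrRS transgene, namely TyrRS-E196K (4 libraries), TyrRS-E196K-NLS (4), TyrRS-WT (3) or TyrRS-WT-NLS (3), and the control, nSyb>+, carried the driver alone (3). E196K is a TyrRS mutation of dominant Charcot-Marie-Tooth neuropathy, and NLS in these names marks a TyrRS whose nuclear localization signal was disrupted, so that the comparisons ask what the mutation and the presence of TyrRS in the nucleus do to brain RNA. TyrRS-E196K flies carried 1 transgene copy, TyrRS-E196K-NLS flies 3 and flies of either WT genotype 2, so copy number changes together with genotype and cannot be told apart from it. The paper reports similar expression of the pan-neuronal transgenes, with that of TyrRS-WT-NLS slightly lower. Nothing in the labels says whether libraries came from separate crosses, so p-values measure the spread between these libraries.

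A neuron releases transmitter when a vesicle docked at the active zone fuses with the plasma membrane. The V-ATPase first acidifies the vesicle: its cytosolic V1 part splits ATP, its membrane part Vo passes protons, and the transporters VGlut, VGAT and VAChT use the resulting gradient to load glutamate, GABA and acetylcholine. Syntaxin and SNAP25 on the plasma membrane and synaptobrevin on the vesicle form the SNARE complex, Rop (Munc18), unc-13 and complexin regulate its assembly, and synaptotagmin triggers fusion when calcium enters. NSF then takes the complex apart, and dynamin, synaptojanin and endophilin recover the membrane by endocytosis. The same pump acidifies lysosomes and endosomes in every cell, and most syntaxins work at other membranes than the synapse, so only part of the members is specific to neurons.

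Reads on genes ranged from 29380481 to 56030758 per library, lowest in control replicate 1. Of the marker lists checked, 5 neuronal genes summed to between 3347 and 4391 CPM (a read count scaled to the size of its library, with edgeR's TMM sizes) in 16 libraries and to 5351 CPM in control replicate 1, which stood apart from the rest. Fat body markers (5, among them the yolk proteins) summed to between 32908 and 46552 CPM in TyrRS-E196K-NLS brains, above all TyrRS-E196K (10261 to 31300 CPM) and all control libraries (22554 to 30718 CPM). Glial markers (6) summed to between 2448 and 2788 CPM in TyrRS-E196K and between 2417 and 2600 CPM in TyrRS-WT, both below the 2796 to 3070 CPM of control brains. Hemocyte markers (4) summed to between 324 and 658 CPM in TyrRS-E196K and between 357 and 662 CPM in TyrRS-WT, below the 666 to 725 CPM of control brains, while TyrRS-E196K-NLS brains, at 884 to 1015 CPM, lay above control. Photoreceptor markers (6) summed to between 7963 and 10083 CPM in TyrRS-WT, below the 14393 to 18492 CPM of control brains, and muscle markers (6) to between 179 and 496 CPM over all libraries. The part of these markers in the results was not tested. No listed marker was at 0 in every library. In whole-brain RNA, fewer cells of a type and less RNA per cell cannot be told apart. Sequencing was done in 2 batches, and which library was in which batch was not given in the sources used here.

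Proton pump genes fell into a set with clear expression and a set with almost no reads. Of the 31 pump members, 20 had a mean of at least 1 CPM over the 17 libraries and 11 did not, while all 32 release members passed this level. Per kb of exon, which allows genes of different length to be compared, the members with at least 1 CPM had a median level of 84.4 CPM per kb, against 14.2 CPM per kb over all genes with at least 1 CPM. The length merges all annotated exons of a gene and can exceed that of any 1 transcript, as with the 22.598 kb of unc-13. The order of genes and classes therefore depends in part on the annotation. The highest member was Vha16-1, the c subunit of the proton-carrying ring, with a mean of 366 CPM per kb (324 to 391 over the libraries). Syt1, the calcium sensor of fast release, averaged 289 CPM per kb, Snap25 288 and complexin (cpx) 258. In the order of these 52 levels, each gene's range over the libraries overlapped that of the next gene down to Syx4 at 13.8 CPM per kb, and a gap separated only Vha36-3, at 0.788 CPM per kb, from the rest.

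**Figure D1:**
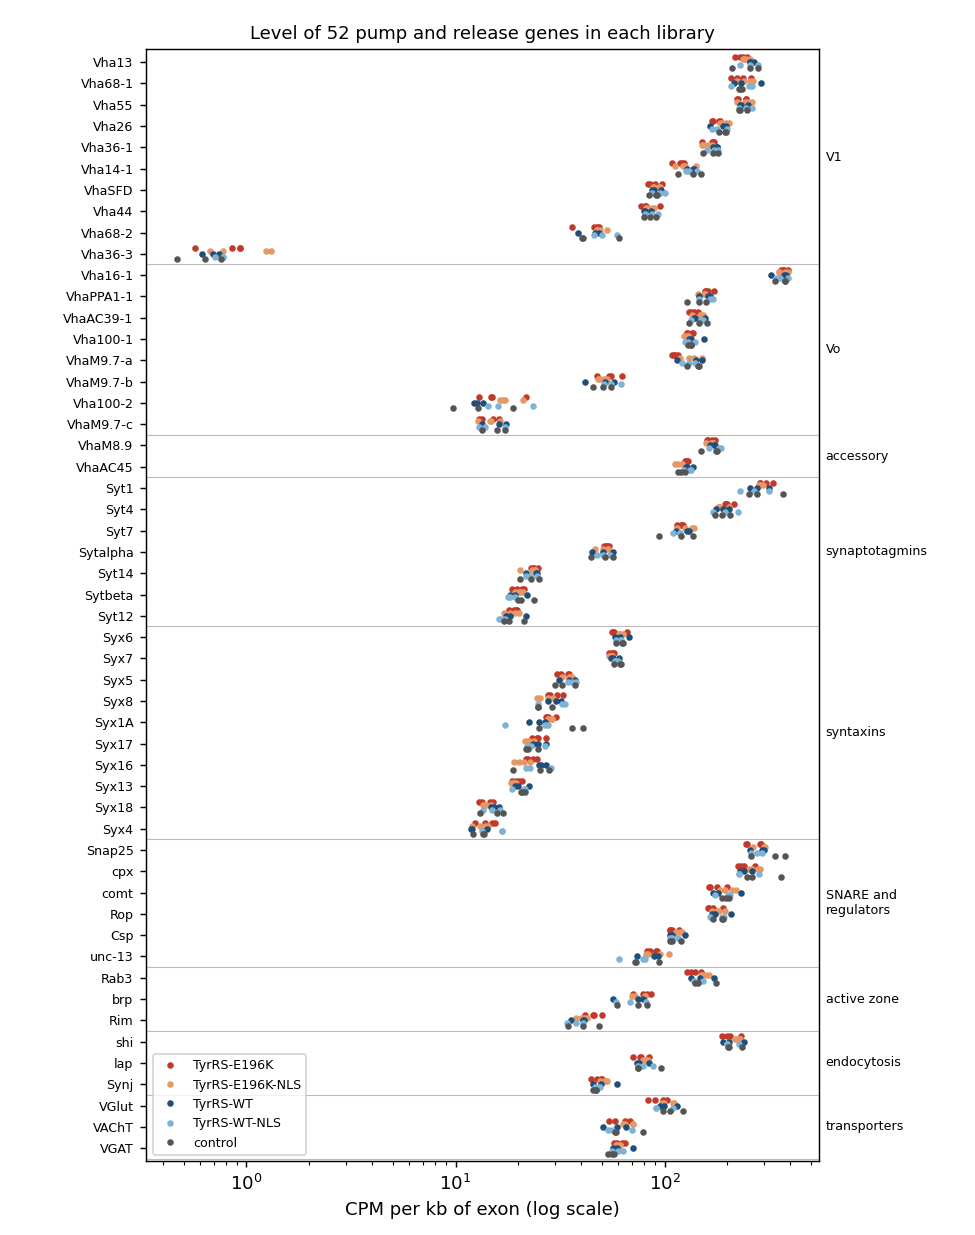
Level of the 52 members with a mean of at least 1 CPM, in CPM per kb of exon on a log axis. Each point is a library, coloured by genotype, and genes are grouped by role and ordered by mean level. The genotypes lie on top of each other for nearly every gene, the spread between genes is far wider than that between genotypes, and Vha36-3 lies far below the other 51.

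Within the V1 part, subunits encoded by 1 gene stood at 239 CPM per kb for Vha55 (B, which forms the ATP-splitting head with A), 247 for Vha13 (G) and 185 for Vha26 (E), both parts of the stalk that holds the head, and 84.7 for Vha44 (C) and 90.9 for VhaSFD (H), which control the attachment of V1 to the membrane. Where a subunit has several genes, 1 of them carried most of the RNA. For the catalytic subunit A, Vha68-1 held 83.3% of the summed CPM per kb on average (79.1% to 88.3% over the libraries), Vha68-2 held 16.6% and Vha68-3 0.0154%. For D, in the rotor, Vha36-1 held 99.4%, Vha36-3 0.473% and Vha36-2 0.142%, and for F Vha14-1 held 99.9% and Vha14-2 0.0628%.

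In Vo, Vha100-1, the a subunit gene that acts in neurons, held 89.2% of the a subunit RNA (85.5% to 93% over the libraries) and Vha100-2 held 10.6% (7% to 14.4%). Vha100-3, Vha100-4 and Vha100-5 together with Vha16-3, Vha16-4, Vha16-5, VhaPPA1-2 and VhaAC39-2 each averaged under 0.4 CPM, with the other genes of their subunits, Vha16-1, VhaPPA1-1 and VhaAC39-1, at 366, 156 and 143 CPM per kb. The small e subunit was the most evenly divided: VhaM9.7-a held 65.6%, VhaM9.7-b 26.8% and VhaM9.7-c 7.61%. The accessory subunits VhaM8.9 (the fly's prorenin receptor homolog) and VhaAC45 stood at 169 and 125 CPM per kb. Reads that fit near-identical copies equally well may be lost or split by the counting, which limits the shares of the rarest copies.

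**Figure D2:**
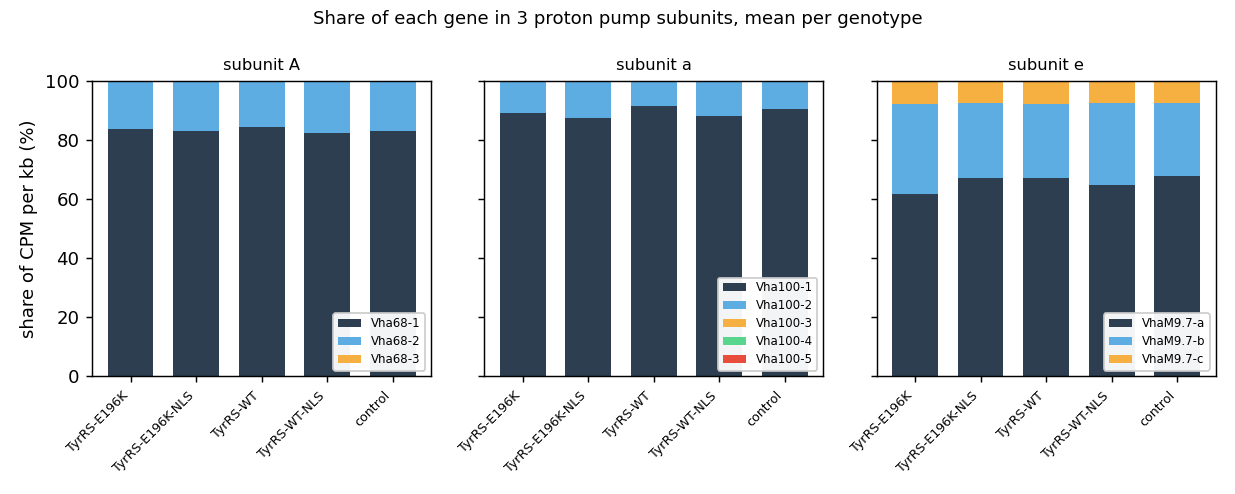
Mean share (%) of each gene in the summed CPM per kb of subunits A, a and e of the proton pump, by genotype. Vha68-1 and Vha100-1 make up over 80% of their subunit in every genotype, and VhaM9.7-a makes up 61.8% of subunit e in TyrRS-E196K and 67.9% in control. Genes under 0.4% are too thin to be seen.

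Among the rare copies, single libraries stood out. Vha100-5 had 116 reads (3.1 CPM) in control replicate 2, against 0 to 26 reads in each of the other 16 libraries. Vha100-4 had 53 reads in TyrRS-E196K-NLS replicate 4 and 33 reads in TyrRS-WT-NLS replicate 2, against 0 to 5 reads in each of the other 15. Vha16-3 had 4 reads in all, 1 in TyrRS-WT replicate 1 and 3 in control replicate 3, and is the member nearest to having none. These genes were singled out after their values were seen.

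Of the 20 pump members with at least 1 CPM, 1, VhaM9.7-a, passed the test, in 1 of the 7 comparisons (TyrRS-E196K against control, which called 6.35% of all genes). Summed over all 31 pump genes, TyrRS-E196K brains had 5731 ± 181 CPM (SD, n = 4), TyrRS-E196K-NLS brains 5861 ± 258 (n = 4), TyrRS-WT brains 5852 ± 321 (n = 3), TyrRS-WT-NLS brains 5912 ± 382 (n = 3) and control brains 5778 ± 150 (n = 3). The 5 ranges overlapped. The 32 release genes summed to 16200 ± 895 CPM in TyrRS-E196K, 16860 ± 312 in TyrRS-E196K-NLS, 16061 ± 1372 in TyrRS-WT, 15574 ± 1487 in TyrRS-WT-NLS and 16832 ± 2274 in control brains, and these ranges overlapped too. The wide spread of the control came from its replicate 1, at 19456 CPM, against 15443 and 15598 CPM in the other two.

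In TyrRS-E196K against control, 1 of the 63 members was called by edgeR's quasi-likelihood test at an adjusted p under 0.05, while 6.35% of all 16163 genes were. DESeq2 called the same 1 member and 13.5% of the genes it tested. The log2 fold changes had a median of -0.02 among the members and of 0 among all genes. Among the 44 members with at least 50 CPM, 9.1% had an unadjusted p under 0.05, against 23.9% of all 3601 genes at that level. At the same level, the 95% interval of the log2 fold change lay wholly within 0.5 in either direction for 39 of the 44 members (88.6%) and for 82.5% of all genes. The intervals of Vha100-2, VhaM9.7-a, Syx1A, Snap25 and cpx reached further.

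VhaM9.7-a (FBgn0035521, chromosome 3L, 4262705 to 4263464, plus strand, BDGP6) encodes a small hydrophobic e subunit of Vo. It had 82.2, 79.3, 79.1 and 76.7 CPM in TyrRS-E196K brains, against 104.0, 91.3 and 103.2 CPM in control brains. All 4 mutant libraries were below all 3 control libraries, and VhaM9.7-a fell by 0.33 on the log2 scale (SE 0.09, 95% interval -0.52 to -0.13, edgeR adjusted p = 0.0418). TyrRS-E196K-NLS brains had 106.9, 83.8, 93.2 and 97.7 CPM, TyrRS-WT brains 81.0 CPM in replicate 1 and up to 106.7 CPM in the other two, and TyrRS-WT-NLS brains 92.6, 99.0 and 85.7 CPM, of which only TyrRS-WT replicate 1 lay within the mutant range. The mutant's log2 fold change was -0.27 against TyrRS-E196K-NLS (adjusted p = 0.0814) and -0.27 against TyrRS-WT (adjusted p = 0.211), and neither passed the test. VhaM9.7-b, which encodes the same subunit, had 66.7 ± 7.75 CPM in TyrRS-E196K and 61.5 ± 6.23 CPM in control (log2 fold change 0.12, interval -0.11 to 0.35), and VhaM9.7-c had 12.2 ± 1.26 and 13.1 ± 1.74 CPM. The 3 genes together gave 181 CPM per kb in TyrRS-E196K and 206 CPM per kb in control.

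The call of VhaM9.7-a lay close to the threshold. Leaving out 1 TyrRS-E196K library gave adjusted p-values of 0.0533, 0.0866, 0.0776 and 0.101 for replicates 1 to 4. Without control replicate 1 or 3 the adjusted p was 0.104 or 0.169, and without TyrRS-E196K-NLS replicate 4, which belongs to neither genotype compared, it was 0.0516. Glial and hemocyte markers also summed lower in all TyrRS-E196K libraries than in all control libraries, and their part in the fall of VhaM9.7-a was not tested. Its log2 fold change stayed between -0.39 and -0.3 in all 24 alternatives tried.

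**Figure D3:**
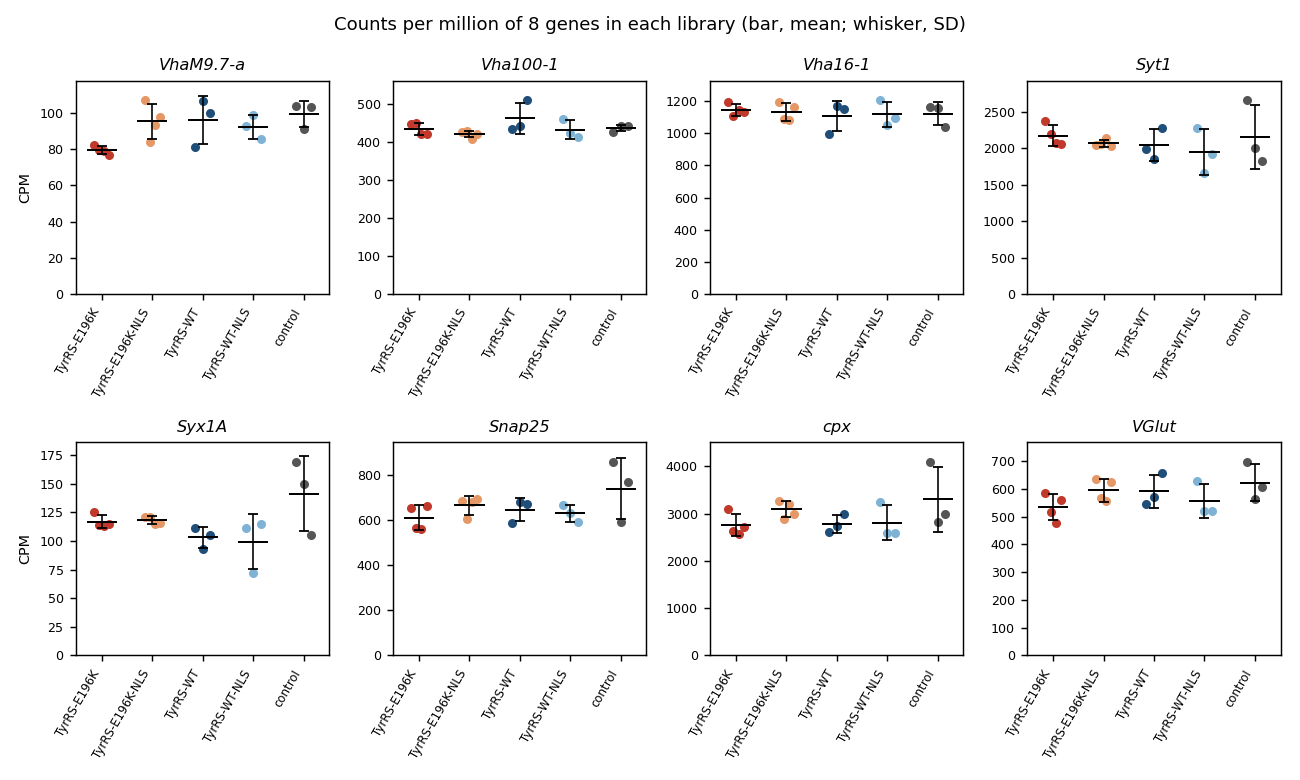
CPM of 8 members in each library (points), with the genotype mean (bar) and SD (whisker). The TyrRS-E196K libraries of VhaM9.7-a lie below all control libraries, and for Vha100-1 and Vha16-1 the genotypes overlap. Control replicate 1, the leftmost control point, is the highest of the 17 libraries for Syt1, Syx1A, Snap25, cpx and VGlut.

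None of the other pump genes passed the test in TyrRS-E196K against control, where 6.35% of all genes did, and their precision differed. Vha100-1 had 434 ± 16 CPM in TyrRS-E196K and 436 ± 8.5 CPM in control brains, with an interval of the log2 fold change of -0.15 to 0.15. Vha16-1 had 1146 ± 38.9 CPM in TyrRS-E196K and 1122 ± 69.8 CPM in control (interval -0.15 to 0.21), Vha13 220 ± 11.8 and 235 ± 33.3 CPM (interval -0.28 to 0.09) and VhaM8.9 243 ± 9.19 and 247 ± 24.2 CPM (interval -0.17 to 0.13). VhaPPA1-1, the c'' subunit of the ring, had 219 ± 10 CPM in TyrRS-E196K and 195 ± 20.3 CPM in control, a log2 fold change of 0.17 that missed the threshold after adjustment (edgeR adjusted p = 0.231). Vha14-1 had 77.7 ± 4.12 CPM in TyrRS-E196K and 88.2 ± 11.2 CPM in control (log2 fold change -0.18, adjusted p = 0.252).

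Vha100-2 had the largest SD within genotypes of the 52, 0.305 on the log2 scale, after a small constant was added to each CPM. The constant lowers the SD of rare genes, so Vha36-3 (SD 0.22, mean 1.02 CPM) may vary as much. The median SD was 0.117 over the members and 0.135 over all genes with at least 1 CPM. Among genes with at least 50 CPM it was 0.116 for the members and 0.116 for all genes. The libraries of Vha100-2 ran from 31.4 CPM in control replicate 1 to 75.7 CPM in TyrRS-WT-NLS replicate 1. Those of TyrRS-WT, at 43.4, 40.9 and 39.4 CPM, lay below all libraries of TyrRS-E196K-NLS and TyrRS-WT-NLS. No comparison made here set those genotypes against each other. Vha100-2 had 41.6, 69.8, 47.5 and 48.2 CPM in TyrRS-E196K, against 31.4, 60.7 and 41.1 CPM in control. These groups overlapped, and the log2 fold change was 0.22 (interval -0.27 to 0.71).

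Of the 7 synaptotagmins, none passed the test in any of the 7 comparisons, which called between 1.53% and 6.35% of all genes. In TyrRS-E196K against control all 7 intervals lay within 0.5 on the log2 scale. Syt1 had 2365.3, 2192.3, 2062.5 and 2053.6 CPM in TyrRS-E196K brains, against 2652.9, 1999.3 and 1821.3 CPM in control brains. The mutant libraries lay inside the control range, and the log2 fold change was 0.01 (interval -0.26 to 0.28). Syt4, which acts in postsynaptic vesicles at the fly neuromuscular junction, had 626 ± 28.8 CPM in TyrRS-E196K and 589 ± 49.2 CPM in control, and Syt7, a calcium sensor of slower release, 395 ± 12.4 and 387 ± 70.2 CPM. Sytalpha, Sytbeta, Syt12 and Syt14 had means of between 18.5 and 51.5 CPM per kb. Syt14 shares 24.4% of its exon bases with Suv3 on the other strand, and a library that does not keep the strand cannot assign reads there.

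The 10 syntaxins were the lowest of the release classes, with a median of 25.8 CPM per kb. Syx6 (trans-Golgi) led them at 60.9 CPM per kb and Syx7 (endosomes) followed at 57.4, ahead of Syx1A, the synaptic one, at 27.8. Syx7 had the smallest SD within genotypes of the 52 members, 0.045 on the same log2 scale, and Syx1A had the largest of the release genes, 0.221.

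Syx1A (FBgn0013343, chromosome 3R, 24101600 to 24105763, minus strand) had the largest log2 fold changes of the release genes in TyrRS-WT and TyrRS-WT-NLS against control. It had 111.2, 93.3 and 104.9 CPM in TyrRS-WT brains, 111.0, 72.2 and 115.2 CPM in TyrRS-WT-NLS brains, and 169.1, 149.8 and 105.0 CPM in control brains. The control libraries disagreed among themselves, and their lowest lay within the range of either WT genotype. The log2 fold change was -0.45 in TyrRS-WT (SE 0.16, edgeR adjusted p = 0.196) and -0.51 in TyrRS-WT-NLS (SE 0.16, adjusted p = 0.104), and neither passed the test. TyrRS-E196K brains had 125.6, 114.0, 113.2 and 114.8 CPM and TyrRS-E196K-NLS brains 121.0, 120.8, 115.0 and 115.3 CPM, with log2 fold changes against control of -0.27 and -0.26, which were -0.13 and -0.12 without control replicate 1 and -0.45 and -0.43 without control replicate 3. Without control replicate 3, the low one, Syx1A had -0.63 in TyrRS-WT (adjusted p = 0.0362) and -0.68 in TyrRS-WT-NLS (adjusted p = 0.0173), while without control replicate 1 it had -0.31 (adjusted p = 0.536) and -0.36 (adjusted p = 0.356). Syx1A shares 10.7% of its exon bases with eIF4EHP on the same strand.

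Among the other SNARE components and regulators, Snap25 came nearest to the threshold. It had 655.5, 566.8, 560.6 and 661.2 CPM in TyrRS-E196K brains, against 858.6, 591.3 and 769.0 CPM in control brains. The groups overlapped through control replicate 2, and the log2 fold change was -0.28 (interval -0.51 to -0.04, edgeR adjusted p = 0.16). Without control replicate 2 it was -0.41 (adjusted p = 0.0211) and without control replicate 1 -0.16 (adjusted p = 0.447).

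Complexin (cpx), the clamp and promoter of fusion, had 3104.2, 2635.0, 2566.2 and 2726.0 CPM in TyrRS-E196K, against 4098.1, 2824.9 and 2989.9 CPM in control. Control replicate 1 stood far above all other libraries of the series, which reached at most 3261.6 CPM. The NSF gene comt had 546 ± 51.5 CPM in TyrRS-E196K and 605 ± 21.9 CPM in control (interval of the log2 fold change -0.37 to 0.07) and Rop 453 ± 35.5 and 483 ± 30.1 CPM (interval -0.28 to 0.1). Csp, a vesicle chaperone, had 338 ± 16.9 and 344 ± 23.8 CPM (interval -0.18 to 0.13), and unc-13, the priming factor, 1977 ± 106 and 1804 ± 289 CPM (interval -0.14 to 0.41). An antisense gene covers 15.6% of the exon bases of unc-13.

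The active zone genes Rim and brp had positive fold changes in TyrRS-E196K that did not pass the test. Rim, a scaffold that recruits calcium channels, had 714.4, 648.2, 592.3 and 656.2 CPM in TyrRS-E196K brains, against 587.4, 507.7 and 579.1 CPM in TyrRS-WT brains. The groups did not overlap, and the log2 fold change was 0.23 (interval 0 to 0.45, edgeR adjusted p = 0.446). Against control, at 692.8, 578.7 and 490.5 CPM, the groups overlapped and the log2 fold change of Rim was 0.15 (interval -0.07 to 0.37). Bruchpilot (brp), the main protein of the presynaptic T-bar, had 1064 ± 88.2 CPM in TyrRS-E196K and 967 ± 159 CPM in control (interval -0.15 to 0.42), and Rab3, the vesicle GTPase, 519 ± 35.7 and 576 ± 76.8 CPM (interval -0.36 to 0.05).

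None of the 3 endocytic members passed the test in any comparison, where between 1.53% and 6.35% of all genes did. The dynamin gene shi had 1235 ± 107 CPM in TyrRS-E196K and 1277 ± 117 CPM in control (interval -0.26 to 0.16), Synj (synaptojanin) 229 ± 11.3 and 221 ± 3.6 CPM (interval -0.12 to 0.21), and lap, the clathrin adaptor AP180, 476 ± 33.3 and 504 ± 75.8 CPM (interval -0.28 to 0.12). EndoA, not counted as a member, had 649 ± 27.6 and 672 ± 47.2 CPM.

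Of the transporters, VGlut had 584.5, 515.2, 477.3 and 558.9 CPM in TyrRS-E196K brains, against 697.7, 564.4 and 606.7 CPM in control brains. The groups overlapped, and its log2 fold change of -0.22 missed the threshold after adjustment (interval -0.44 to -0.01, edgeR adjusted p = 0.232). VGAT had 164 ± 9.15 CPM in TyrRS-E196K and 150 ± 5.15 CPM in control (interval -0.03 to 0.29), and VAChT 435 ± 46 and 463 ± 84.1 CPM (interval -0.35 to 0.17). VAChT shares 8.5% of its exon bases with ChAT on the same strand, in whose first intron the gene lies in the cholinergic locus.

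**Figure D4:**
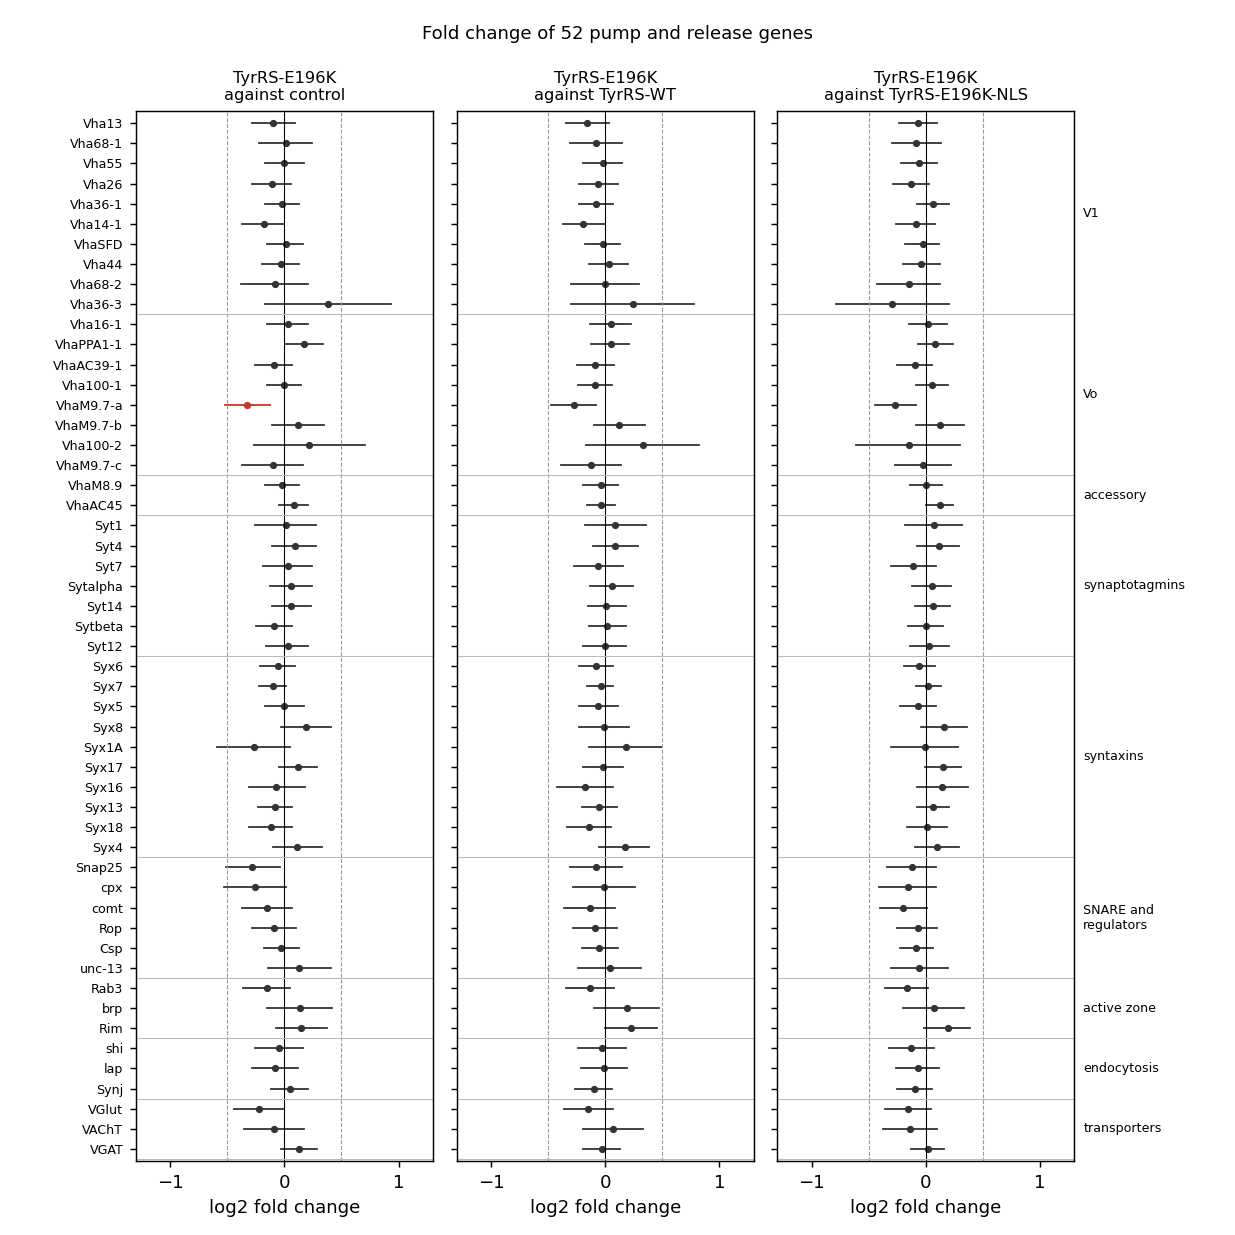
Log2 fold change (points) with 95% intervals (lines) of the 52 members with at least 1 CPM in TyrRS-E196K against control, TyrRS-WT and TyrRS-E196K-NLS. Dashed lines mark 0.5 in either direction, and the member past an adjusted p of 0.05, VhaM9.7-a against control, is in red.

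Control replicate 1 moved with these results. It was the highest of the 17 libraries for 9 of the 32 release genes and the lowest for 5 of the 20 pump genes. TyrRS-WT replicate 3 was the highest for another 9 release genes, and TyrRS-E196K replicate 3 the lowest for 9, among them Snap25, cpx and VGlut. Such counts were not made over all genes. The same control library had the highest sum of neuronal markers and the lowest depth, and the part of these in the fold changes against control was not tested.

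In the 6 other comparisons edgeR called 0 of the 63 members. In TyrRS-WT against control edgeR called 2.3% of all genes. There 3 members had an unadjusted p under 0.05, as did 12.9% of all genes, and DESeq2 called 0 members and 5.94% of the genes it tested. In TyrRS-E196K-NLS against control 4.79% of all genes were called. There 5 members had an unadjusted p under 0.05, as did 16.1% of all genes, and DESeq2 called 1 member, Syx7, and 8.82% of genes. In TyrRS-WT-NLS against control 3.84% of all genes were called. There 4 members had an unadjusted p under 0.05, as did 16.6% of all genes, and DESeq2 called 1 member, Syx1A, and 9% of genes. Of these 3, 5 and 4 members, 1, 2 and 3 in that order had a mean of at least 1 CPM.

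Between transgenic genotypes, edgeR called 1.62% of all genes in TyrRS-E196K against TyrRS-WT. There 3 members (VhaM9.7-a, Rim and Vha14-1) had an unadjusted p under 0.05, as did 10.9% of all genes, and DESeq2 called 0 members and 3.62% of genes. In TyrRS-E196K against TyrRS-E196K-NLS 5.6% of all genes were called. There 2 members (VhaM9.7-a and Vha14-2) had an unadjusted p under 0.05, as did 18% of all genes, and DESeq2 called 2 members, VhaM9.7-a and VhaAC45, and 11.8% of genes. The interaction, which asks whether the effect of E196K differs with the nuclear localization signal disrupted, called 1.53% of all genes. Here 3 members (Syx4, VhaM9.7-a and Vha16-4) had an unadjusted p under 0.05, as did 11.7% of all genes, and DESeq2 called 0 members and 4.57% of genes. Of the members named here, Vha14-2 had only 1 to 13 reads per library and Vha16-4 only 0 to 5.

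Among genes with at least 50 CPM, the share whose interval lay within 0.5 on the log2 scale was 93.2% of members and 83.5% of all genes in TyrRS-WT, 95.5% and 85% in TyrRS-E196K-NLS, and 93.2% and 80.5% in TyrRS-WT-NLS, each against control. It was 95.5% of members and 87.8% of all genes in TyrRS-E196K against TyrRS-WT, 97.7% and 85.8% in TyrRS-E196K against TyrRS-E196K-NLS, and 77.3% and 73.2% in the interaction. The 4 comparisons against control share its 3 libraries.

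Vha36-3, a rare copy of subunit D, averaged 1.02 CPM over all libraries and is the member nearest to the 1 CPM level, which its means in TyrRS-WT, TyrRS-WT-NLS and control did not reach. Vha36-3 had few reads, 38 to 90 per library in TyrRS-E196K-NLS and 17 to 37 in the shallower control libraries. Scaled to library size, these groups overlapped, at 0.867 to 1.69 CPM against 0.601 to 0.982 CPM. The log2 fold change was 0.68 (interval 0.13 to 1.22, edgeR adjusted p = 0.185), which did not pass the test. Syx4, a plasma membrane syntaxin, had 26.7 ± 3.24 CPM in TyrRS-WT-NLS and 22.5 ± 1.5 CPM in control, and its interaction was 0.4 on the log2 scale (interval 0.1 to 0.7, adjusted p = 0.228), which did not pass the test.

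A list of other presynaptic genes outside the members, among them neuronal synaptobrevin, the calcium channel cac and the clathrin adaptor AP-2, had 40 of its 50 symbols in the table. In TyrRS-E196K against control 0 of the 40 were called by edgeR, with 3 at an unadjusted p under 0.05, where 20% of all genes were, and a median of -0.02 for their log2 fold changes. The 7 comparisons made 2 calls in this list, 1 in a comparison that called 4.79% of all genes and 1 in a comparison that called 5.6%. Snap29, a SNARE of autophagosome fusion, had 25.3 ± 0.847 CPM in TyrRS-E196K-NLS and 32.1 ± 3.89 CPM in control, and fell by 0.34 on the log2 scale (edgeR adjusted p = 0.0326). Its means were below control in the other transgenic genotypes too, without a call: 25.8 ± 1.94 CPM in TyrRS-WT-NLS, 27.5 ± 2.42 in TyrRS-WT and 28.5 ± 2.43 in TyrRS-E196K. Mitf, a transcription factor that in flies activates V-ATPase genes, had 74.8 ± 3.17 CPM in TyrRS-E196K and 97.1 ± 8.96 CPM in TyrRS-E196K-NLS brains, and fell by 0.38 on the log2 scale (adjusted p = 0.0118), while its level in control was 90.8 ± 14.3 CPM. The low level was not particular to TyrRS-E196K: Mitf had 78 ± 6.45 CPM in TyrRS-WT and 79.1 ± 1.27 CPM in TyrRS-WT-NLS. None of the pump members was called in that comparison by edgeR. Fat body and hemocyte markers also differed without overlap between TyrRS-E196K-NLS and either TyrRS-E196K or control, and their part in the calls of Snap29 and Mitf was not tested.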

How the data were processed

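The deposited table holds 17 brain libraries, those left after the authors had removed 3 as outliers. The authors trimmed the reads (Trimmomatic 0.32), mapped them to BDGP6 (TopHat2 2.0.12), counted them per gene (HTSeq 0.6.1) and deposited raw counts. The authors fitted DESeq2 with a batch factor, which could not be repeated because batches are not named per library. The table of normalized values was not used. Genotypes came from the labels. The column of 1 TyrRS-WT-NLS library carries another number than its label and was used without a replicate number. The paper gives the number in that label to a TyrRS-WT-NLS library it removed as an outlier. All other library columns matched sample labels of the series, and the genotype of the mismatched column was read from its name.

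All 16163 genes with a read were fitted together with edgeR 4.0.16 (TMM, quasi-likelihood test with robust estimation, 1 mean per genotype, R 4.3.3), and p-values were adjusted by Benjamini-Hochberg, with calls made under 0.05. The SE is the log2 fold change divided by the root of its F statistic, and intervals are 95%. The procedure was run on simulated counts in which all genes had the same spread between libraries and no library stood apart. That run does not show how often changes as small as those of the members would be called here. CPM values use TMM library sizes, and lengths are merged exons of a BDGP6 annotation, matched by identifier for 57 members and by symbol for 6. Within a genotype, Spearman correlations between libraries were 0.972 to 0.985, and libraries differed by more than sampling noise. Ambiguous reads and reads outside genes stayed out of the totals. At this depth the spread between libraries limits the precision, except for genes under 1 CPM.

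Named are all members past the threshold, the highest of each class per kb, the genes given by full name, Syt1, Syx1A and Vha100-1. Others were named after their values were seen. Members, lists and tests were chosen with earlier results of these data known. Alternatives were filterByExpr, DESeq2 1.42.0 and its size factors, only the genotypes compared, a replicate block, 1 surrogate variable (sva 3.50.0), edgeR without robust estimation (added after seeing the data) and leaving out each library. Python 3.11.15 with scipy 1.17.1 was used for tables.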

Additional observations from a re-analysis of the deposited data

Results flagged for a closer look

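In genotypes with 4 libraries, 23 named members were screened for a library far from the other 3. Chance alone marks about 1 in 20 such groups, and 3 of 46 were marked. Snap25 had 605 CPM in TyrRS-E196K-NLS replicate 2, against 682 to 693 CPM in the other 3 libraries of that genotype. Syx6 had 149 CPM in TyrRS-E196K replicate 1, against 127 to 130 CPM in the others. Syx1A had 126 CPM in the same library, TyrRS-E196K replicate 1, against 113 to 115 CPM.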

How the results depend on the processing

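The median log2 fold change of the members moved by more than the spread between libraries in 1 of 168 refits. Of 10527 refitted fold changes of the 63 members, 0 reversed in a called value, 519 changed sign without being called under either setting, 8 lost and 11 gained a call. In TyrRS-E196K against control the count of called members was 0 to 2 when 1 library was left out and 0 with the replicate block, where VhaM9.7-a had an adjusted p of 0.101. It was 0 to 1 for TyrRS-WT and for TyrRS-WT-NLS against control and for TyrRS-E196K against TyrRS-E196K-NLS when 1 library was left out (1 for the last without TyrRS-E196K-NLS replicate 2 or TyrRS-WT replicate 1). The last of these had 2 called members with DESeq2 and 1 when only the genotypes compared were fitted. TyrRS-WT-NLS against control had 1 with the replicate block and 1 with DESeq2, each time Syx1A, and TyrRS-E196K-NLS against control had 1 with DESeq2. The block is built on replicate numbers and left out the mismatched TyrRS-WT-NLS column. That library had 115.2 CPM of Syx1A, against 111.0 and 72.2 CPM in the others of its genotype. With the block the log2 fold change of Syx1A was -0.69, against -0.51 in the main fit. Leaving out the same library without the block gave 0 called members in this comparison. The part of the lost library in the call with the block was not tested. Replicate numbers did not pair libraries: deviations of libraries with the same number had a mean correlation of -0.011 over 27 pairs. Only 3 control libraries were available, with the lowest depth of the series among them, and they disagreed for Syx1A, Snap25 and cpx.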
